A study of Mus musculus with 8 samples.

Results

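The BCL2 family genes followed here were 4 pro-survival members, Bcl2, Bcl2l1, Mcl1 and Bcl2a1b, and 6 pro-death members, the BH3-only genes Bcl2l11, Bbc3, Bmf and Pmaip1 and the effectors Bax and Bak1. They were chosen by name, as the genes whose Ensembl identifiers map to these 10 symbols, and make up 10 of the 54532 genes in the count table. All 10 had enough reads to be among the 15305 genes tested.

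The family governs the mitochondrial route of programmed cell death. BAX and BAK1 open the outer mitochondrial membrane, the pro-survival proteins hold them and the BH3-only proteins in check, and BH3-only proteins release that check when a cell meets stress or loses a survival signal. In the B lineage, BCL2, BCL-XL (the product of Bcl2l1) and MCL1 are known to be used at different stages of development, and BIM (the product of Bcl2l11) is known for removing self-reactive B cells.

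RNA was sequenced from bone marrow B cells of mice that had a sham operation (Sham, 3 libraries) or removal of both ovaries (OVX, 3 libraries), a surgical model of menopause. The B cells were enriched as a whole with magnetic beads, so each library is a mixture of stages from pro-B cell to mature B cell. No transgene or drug is named for either group, and the labels give neither strain nor age for these mice. The study counts its samples in mice, but the labels tie no library to a mouse, and each library was taken as 1 replicate.

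The libraries held between 23838775 and 33136701 reads assigned to genes. Levels are given in CPM, reads scaled to a common library total with edgeR's trimmed-mean factor. Markers of B cells in general made up between 1.01% and 1.17% of the reads in every library. The Sham replicate 2 library stood apart from the other 5: mature B cell markers took 0.328% of its reads against 0.146% to 0.188% elsewhere, and pro-B and pre-B markers took 0.15% against 0.183% to 0.294%. Monocyte and macrophage markers were also highest in Sham replicate 2, at 0.165% of reads against 0.0434% to 0.133% elsewhere. Neutrophil markers took 0.955% of the reads in Sham replicate 3 and between 0.111% and 0.413% in the others. In such bulk libraries a lower value can come from fewer cells of a stage or from less RNA per cell, and these cannot be told apart.

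The study asked how the hypoxia factor HIF-1α acts in B cells after ovariectomy, so the sequences just before the start sites of the members were read for the core of the hypoxia response element, written as ACGTG or GCGTG and searched on both strands, with overlapping matches counted as 1 site. The sequences are from RefSeq (GRCm38.p6, the mm10 build) and cover the 250 bases before each start that had a window. These need not be all annotated starts of a gene: for Bcl2l1, Bbc3 and Mcl1 every window lay inside the span of the gene. In all, 9 members had 16 such windows. The core was found in 7 windows of 5 members, Bcl2l1, Bcl2a1b, Bcl2l11, Bbc3 and Bax, and in no window of Bcl2, Mcl1, Bmf or Bak1. The share of all 32851 windows that held it was 38.6%, and of all 27025 genes 41.5% held it in at least 1 window. Bcl2 and Bcl2l1 are shown because their reads were highest and lowest in the same library, Bbc3 because its first window held 4 sites, and Bax because its site is palindromic, reading the same on both strands. Each is given 5′ to 3′ on the strand of the gene, with the core in capitals.
Bcl2, minus strand, chr1:106714291-106714540: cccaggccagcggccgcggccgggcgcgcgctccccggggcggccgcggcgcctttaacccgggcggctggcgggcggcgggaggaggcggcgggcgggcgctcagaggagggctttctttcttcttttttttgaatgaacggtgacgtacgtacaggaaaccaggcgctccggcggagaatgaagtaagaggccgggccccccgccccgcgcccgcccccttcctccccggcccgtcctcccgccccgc
Bcl2l1, minus strand, chr2:152831729-152831978: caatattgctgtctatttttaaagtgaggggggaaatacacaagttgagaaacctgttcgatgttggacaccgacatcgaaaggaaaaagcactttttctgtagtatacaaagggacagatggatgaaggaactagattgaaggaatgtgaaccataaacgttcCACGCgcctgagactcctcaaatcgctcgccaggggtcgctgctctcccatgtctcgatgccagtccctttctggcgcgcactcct
Bbc3, plus strand, chr7:16309333-16309582: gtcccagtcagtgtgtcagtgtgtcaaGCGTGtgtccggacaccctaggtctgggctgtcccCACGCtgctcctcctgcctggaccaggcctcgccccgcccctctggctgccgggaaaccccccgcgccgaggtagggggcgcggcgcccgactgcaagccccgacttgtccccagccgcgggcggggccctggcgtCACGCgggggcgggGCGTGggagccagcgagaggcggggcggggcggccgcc
Bax, minus strand, chr7:45466899-45467148: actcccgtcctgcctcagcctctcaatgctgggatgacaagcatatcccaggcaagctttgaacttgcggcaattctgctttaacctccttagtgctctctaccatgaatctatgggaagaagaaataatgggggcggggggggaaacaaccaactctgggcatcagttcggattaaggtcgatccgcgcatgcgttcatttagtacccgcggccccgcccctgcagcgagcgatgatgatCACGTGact
A match describes the letters only and is not a binding site, and the absence of one in Bcl2 says only that these letters are not in that window. The Bcl2l1 window is 1 of 3 for that gene, and the other 2 windows of Bcl2l1 held no core. The Bcl2l1 and Bbc3 windows shown lie inside the spans of their genes, so neither is the sequence before the outermost start.

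None of the 10 members differed between OVX and Sham at an adjusted p under 0.05 with at least a 1.6-fold change, and neither did any other gene (0 of 15305, 0%, by edgeR's quasi-likelihood test, p-values adjusted by Benjamini-Hochberg). At an unadjusted p under 0.05 stood 0 members and 574 genes (3.75%), and the lowest adjusted p over all genes was 0.811. No member had all OVX libraries above or all below the Sham libraries, against 8.44% of all genes tested, of which 4.33% had OVX above and 4.12% had OVX below. An exact permutation test of 3 libraries against 3 cannot give a p under 0.1. The fitted value was higher in OVX for 6 members and lower for 4, and the median of the 10 log2 fold changes was 0.02, beside -0.01 over all genes tested. The highest library was at a median of 1.71 times the lowest over the members and 1.43 times over all genes tested. The members were not alike in this: Mcl1, Bcl2l11, Bax and Bak1 were below that value for all genes, at 1.28, 1.18, 1.19 and 1.21 times.

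**Figure D1:**
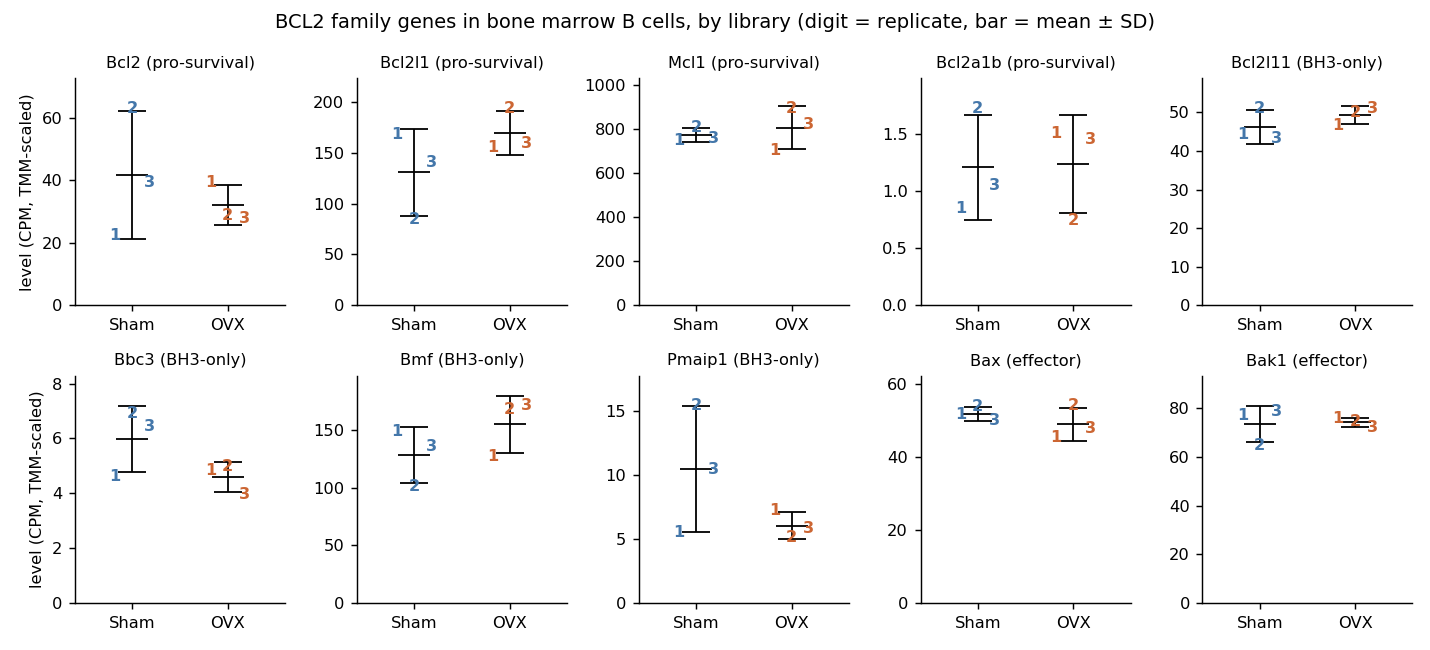
Level of each of the 10 members in the 3 Sham and 3 OVX libraries, in CPM on axes that start at 0 and differ between panels. Each digit is the library of that replicate number, and the bars show the mean and 1 SD to either side. The OVX and Sham values overlap in every panel, and Sham replicate 2 is the top value for Bcl2, Bcl2a1b, Bbc3 and Pmaip1 and the bottom value for Bcl2l1, Bmf and Bak1.

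Among the pro-survival members, Bcl2 (ENSMUSG00000057329, chr1:106538176-106714290), the founding inhibitor of mitochondrial cell death, varied most. It stood at 22.3, 63.2 and 39.4 CPM in Sham replicates 1, 2 and 3 and at 39.4, 28.7 and 27.9 CPM in OVX replicates 1, 2 and 3. Both the highest and the lowest library were Sham, and the OVX values all lay between them. The means were 41.6 ± 20.5 CPM in Sham and 32.0 ± 6.4 CPM in OVX (SD, n = 3 each), a log2 fold change of -0.38 (SE 0.35, 95% interval -1.19 to 0.43, edgeR adjusted p = 0.815). The lowest library still held 528 reads of Bcl2, for which counting alone gives a variation of 4.35%, against 49.4% measured over the Sham libraries. A range as wide as its 2.84-fold was found in 16.5% of all genes tested and in 2.19% of those with a mean of at least 500 reads. The direction of the fold change rested on Sham replicate 2, without which it was 0.05.

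Bcl2l1 (ENSMUSG00000007659, chr2:152758732-152833803) encodes BCL-XL, the pro-survival protein tied to immature B lineage stages. Its level was 168, 84.3 and 140.4 CPM in the Sham libraries and 155, 194 and 159 CPM in the OVX libraries. The Sham replicate 2 library was far below the other 5, which lay between 140.4 and 194 CPM, so the groups overlapped through Sham replicate 1. The means were 131 ± 42.6 and 169.5 ± 21.4 CPM (SD, n = 3 each) and the log2 fold change 0.37 (SE 0.23, 95% interval -0.17 to 0.92, edgeR adjusted p = 0.811). Without Sham replicate 2 it was 0.13, and without Sham replicate 1 it was 0.59.

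Mcl1 (ENSMUSG00000038612, chr3:95656944-95663179), whose short-lived protein B cells need from the earliest stages on, was far steadier. Its level was 751, 809.5 and 757.5 CPM in Sham and 702, 897 and 823 CPM in OVX, so that OVX held both the lowest and the highest library. The log2 fold change was 0.06 (SE 0.10, 95% interval -0.18 to 0.31, edgeR adjusted p = 0.878), with means of 773 ± 32.2 and 807 ± 98.3 CPM (SD, n = 3 each). The interval leaves out a change of 1.6-fold in either direction.

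Bcl2a1b (ENSMUSG00000089929, chr9:89199273-89207838) is a copy of the A1 gene, a pro-survival member switched on by NF-kB. It held only 20, 49 and 26 reads in Sham and 37, 21 and 48 reads in OVX. These are 0.843, 1.72 and 1.04 CPM against 1.51, 0.74 and 1.45 CPM, with Sham replicate 2 again on top and the groups overlapping. The log2 fold change was 0.03 (SE 0.41, 95% interval -0.93 to 0.98, edgeR adjusted p = 0.989), an interval that spans a 1.6-fold difference in either direction. Counting alone gives a variation of 22.4% in the library with its fewest reads, against 38.3% measured over Sham and 34.7% over OVX. Its near-identical copies were as thinly covered. Bcl2a1a held 19, 46 and 31 reads in Sham and 8, 21 and 62 in OVX (adjusted p = 0.903), Bcl2a1d held 30, 75 and 48 in Sham and 59, 42 and 53 in OVX (adjusted p = 0.948), and Bcl2a1c held 0 reads in every library. How the authors assigned reads shared by these copies is not given in the sources used here, so each count is uncertain.

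The BH3-only genes opened with Bcl2l11 (ENSMUSG00000027381, chr2:128126038-128162547), which encodes BIM, a binder of every pro-survival protein in the family. It was at 44.2, 51.1 and 43.3 CPM in Sham and at 46.7, 50.0 and 51.1 CPM in OVX. With a highest library at 1.18 times the lowest, it was the steadiest of the 10 members. The log2 fold change was 0.09 (SE 0.09, 95% interval -0.12 to 0.30, edgeR adjusted p = 0.816), with means of 46.2 ± 4.29 and 49.3 ± 2.29 CPM (SD, n = 3 each). The groups overlapped through Sham replicate 2. In the remaining 5 libraries Sham was between 43.3 and 44.2 CPM and OVX between 46.7 and 51.1 CPM. Without Sham replicate 2, 15.2% of all genes tested had groups that did not overlap.

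Bmf (ENSMUSG00000040093, chr2:118528757-118549686) encodes a BH3-only protein held at the cytoskeleton until it is released by loss of attachment or other stress. Its level was 149, 102 and 136 CPM in Sham and 127, 168 and 171 CPM in OVX. Sham replicate 2 was lowest, and OVX replicate 1 fell among the Sham values. The means were 129 ± 24.5 and 155.5 ± 24.8 CPM (SD, n = 3 each) and the log2 fold change 0.27 (SE 0.17, 95% interval -0.12 to 0.67, edgeR adjusted p = 0.811). It was 0.12 without Sham replicate 2 and 0.40 without OVX replicate 1.

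Pmaip1 (ENSMUSG00000024521) encodes NOXA, a p53 target that binds MCL1 and promotes its loss. Its fold change was the largest of the 10 members. It was at 5.52, 15.4 and 10.4 CPM in Sham (131, 438 and 260 reads) and at 7.20, 5.11 and 5.81 CPM in OVX (177, 145 and 192 reads). Sham replicates 2 and 3 were above all 3 OVX libraries, whereas Sham replicate 1 lay among them. The means were 10.5 ± 4.94 and 6.04 ± 1.06 CPM (SD, n = 3 each), and the log2 fold change was -0.80 (SE 0.36, 95% interval -1.63 to 0.04, edgeR unadjusted p = 0.0595, adjusted p = 0.811). Without Sham replicate 2 it was -0.41 and without Sham replicate 1 it was -1.10. By DESeq2 the unadjusted p was 0.0162 and by edgeR's exact test 0.0448, and neither passed after adjustment.

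Bbc3 (ENSMUSG00000002083, chr7:16308398-16318334) encodes PUMA, the other BH3-only gene best known as a p53 target. It was at 4.60, 6.90 and 6.43 CPM in Sham and at 4.84, 4.97 and 3.96 CPM in OVX, from 109 to 196 reads a library. As for Pmaip1, Sham replicates 2 and 3 were above all OVX libraries and Sham replicate 1 was not. The log2 fold change was -0.38 (SE 0.22, 95% interval -0.89 to 0.13, edgeR adjusted p = 0.811), with means of 5.98 ± 1.22 and 4.59 ± 0.549 CPM (SD, n = 3 each). Without Sham replicate 1 it was -0.54.

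Bax and Bak1, the effectors, had the narrowest intervals of the 10 members. Bax (ENSMUSG00000003873, chr7:45461695-45466903) was at 51.8, 54.0 and 50.0 CPM in Sham and at 45.4, 54.2 and 47.8 CPM in OVX. Its log2 fold change was -0.08 (SE 0.09, 95% interval -0.28 to 0.12, edgeR adjusted p = 0.830), with OVX holding both ends of the range. Bak1 (ENSMUSG00000057789, chr17:27019812-27028627) was at 77.1, 64.9 and 78.7 CPM in Sham and at 75.8, 74.7 and 72.2 CPM in OVX. Its log2 fold change was 0.01 (SE 0.09, 95% interval -0.19 to 0.22, edgeR adjusted p = 0.970), and the groups overlapped through the low Sham replicate 2. In the remaining 5 libraries Sham was between 77.1 and 78.7 CPM and OVX between 72.2 and 75.8 CPM, and 15.2% of all genes tested did not overlap there either. The intervals of both effectors, like those of Mcl1, Bcl2l11 and, narrowly, Bmf, leave out a change of 1.6-fold. The gene Ggnbp1, which overlaps Bak1, held 74 to 150 reads a library, and whether counting used strand is not given in the sources used here.

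**Figure D2:**
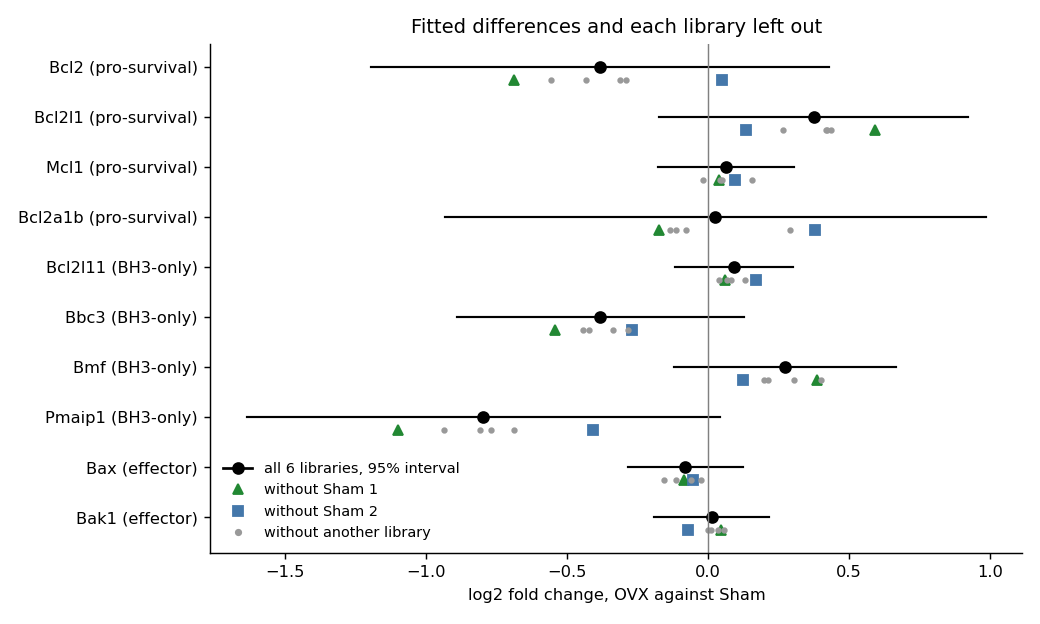
Log2 fold change of each member, OVX relative to Sham, with its 95% interval from the fit across all 15305 genes (black), and under it the values with 1 library left out (green triangle without Sham replicate 1, blue square without Sham replicate 2, grey points without each other library). Every interval crosses 0, that of Pmaip1 reaches from -1.63 to 0.04, and Bcl2 moves from -0.38 to 0.05 without Sham replicate 2.

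By role, then, 3 of the 4 pro-survival members had a higher and 1 a lower fitted value in OVX. Their log2 fold changes ran from -0.38 to 0.37 around a median of 0.04. The 4 BH3-only members split evenly, 2 higher and 2 lower, from -0.80 to 0.27 around a median of -0.15, and the effectors gave 1 of each. Over the 6 pro-death members the median was -0.03, beside -0.01 for all genes tested, so members of both roles had fitted values on either side of 0.

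The balance within a library was also read as a ratio of reads, which no scaling of libraries alters. Such a ratio compares libraries and not the amounts of the proteins or transcripts, because reads grow with transcript length. Summed pro-survival reads were 4.63, 5.48 and 4.79 times the summed BH3-only reads in Sham and 4.84, 4.91 and 4.36 times in OVX. They were 7.31, 8.06 and 7.29 times the summed effector reads in Sham and 7.41, 8.70 and 8.43 times in OVX. Both sums overlapped between groups, and their highest library was only 1.26 and 1.19 times the lowest. Mcl1 supplied between 58.3% and 64.6% of all reads of the 10 members, so the pro-survival sum follows it closely. Bmf supplied between 8.11% and 12.6%, more than any other BH3-only member, so it weighs most in the BH3-only sum.

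Apart from Mcl1 to Bcl2l11, single pairs varied more. The ratio of Mcl1 to Pmaip1, the partner that NOXA binds, was 136, 52.5 and 72.5 in Sham and 97.5, 175 and 142 in OVX, with means of 87.0 ± 43.5 and 138 ± 39.1 (SD, n = 3 each). Sham replicate 1 lay inside the OVX range. The ratio of Bcl2l1 to Bak1, a pair whose proteins bind, was 2.18, 1.30 and 1.78 in Sham and 2.05, 2.60 and 2.21 in OVX, and again only Sham replicate 1 overlapped. Mcl1 to Bak1 stood between 9.27 and 12.5 in the 6 libraries and Mcl1 to Bcl2l11 between 15.0 and 17.9, the narrowest span of these pairs.

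Bcl2 and Bcl2l1 gave the widest ratio. Reads of Bcl2 were 0.133, 0.749 and 0.280 of those of Bcl2l1 in Sham and 0.254, 0.148 and 0.175 in OVX, a 5.65-fold span. Its ends were Sham replicates 1 and 2, and all OVX libraries lay between them. Within the BH3-only genes, Pmaip1 to Bmf ran from 0.0304 in OVX replicate 2 to 0.152 in Sham replicate 2, a 4.99-fold span. The ratios of Bcl2 to Bcl2l1 and of Pmaip1 to Bmf were chosen after the values had been seen. Set against the pro-death genes, Bcl2 to Bcl2l11 was 0.503, 1.24 and 0.910 in Sham and 0.842, 0.575 and 0.545 in OVX, and Bcl2 to Bax was 0.430, 1.17 and 0.786 in Sham and 0.867, 0.531 and 0.583 in OVX.

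**Figure D3:**
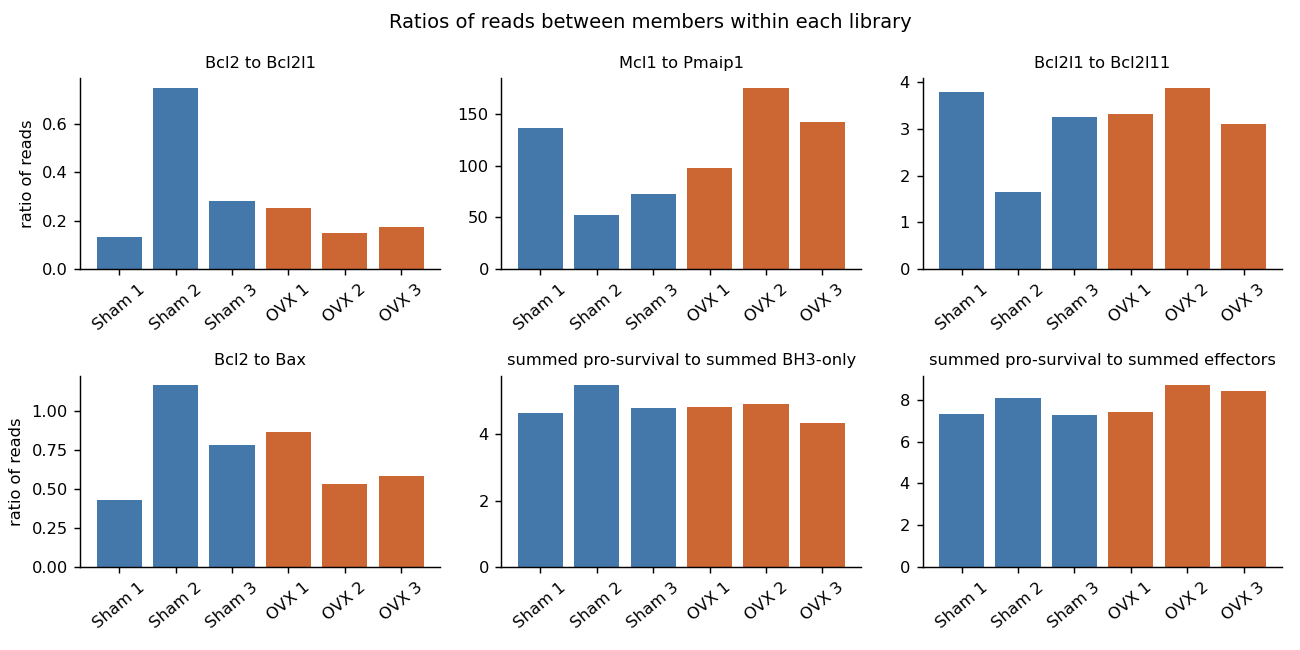
Ratios of reads for 6 pairs or sums of members, 1 panel each, with 1 bar for each Sham (blue) and OVX (orange) library and axes that start at 0 and differ between panels. The summed ratios are nearly level across libraries, the ratio of Bcl2 to Bcl2l1 spans 5.65-fold, and no panel separates the 3 OVX libraries from the 3 Sham libraries.

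Sham replicate 2 was an end of the range for 7 of the 10 members. It was above the other 5 libraries for Bcl2, Bcl2a1b, Bbc3 and Pmaip1, at 2.004, 1.54, 1.39 and 2.26 times their mean. It was below all of them for Bcl2l1, Bmf and Bak1, at 0.516, 0.676 and 0.857 times their mean, and within their range for Mcl1, Bcl2l11 and Bax. Both directions thus held pro-survival and pro-death genes. The share of all genes tested with Sham replicate 2 at an end of the range was not counted. The 7 of 10 is therefore not read as particular to this family.

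Many stage markers differed in the same library. Of the 8 mature B cell markers 7 were highest there, and of the 9 pro-B and pre-B markers 5 were lowest there, 3 lay within the range of the other libraries and 1, Vpreb2, was highest. Ighd, which encodes the IgD heavy chain of mature B cells, was at 1011 CPM in Sham replicate 2 and between 425 and 546 CPM in the other 5 libraries. Fcer2a, which encodes CD23, was at 432.5 CPM there against 131 to 200 CPM, and Rag1, the recombinase of pro-B and pre-B cells, at 580.1 CPM against 974 to 1514 CPM, whereas Vpreb1 and Igll1, which encode parts of the pre-B receptor, were at 138 and 229 CPM against 95.7 to 203.5 and 162 to 308 CPM. Sham replicate 1 had the lowest Ighd, a high Rag1 of 1349 CPM and the lowest Bcl2. Every marker listed had reads in at least 1 library. Monocyte and macrophage markers took between 0.0434% and 0.165% of reads with the highest share in Sham replicate 2, and plasma cell markers between 0.0943% and 0.144%, again highest there, while T and NK cell markers (0.0015% to 0.00466%) and erythroid markers (0.0131% to 0.0457%) were scarce. With the share of mature B cell markers as a term in the fit, a choice made after the values had been seen, the log2 fold change of Bcl2 was -0.01 (SE 0.20), that of Pmaip1 -0.45 (SE 0.25) and that of Bcl2l1 0.21 (SE 0.08, edgeR unadjusted p = 0.0466, adjusted p = 0.979). That share was 0.328% in Sham replicate 2 and 0.146% to 0.188% elsewhere, so the term mostly marks that library. It cannot tell stage composition from anything else that set the library apart. The part of stage composition in the members' values was not tested.

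**Figure D4:**
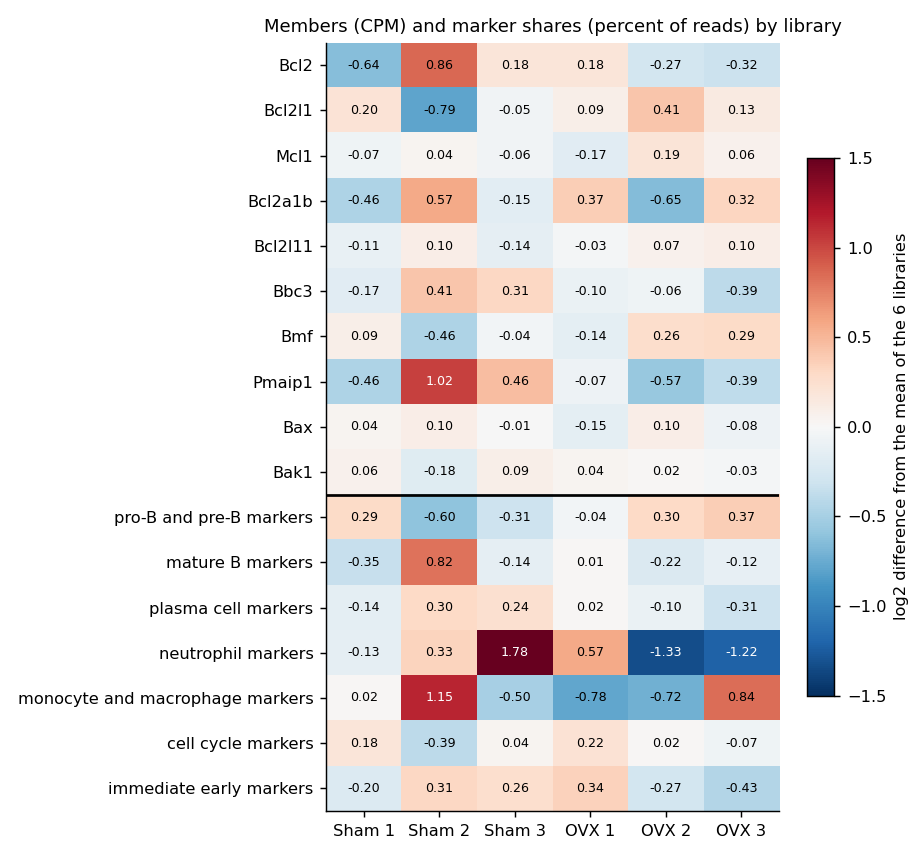
Log2 level of each member (from CPM) and of 7 marker lists (from the percent of reads) in the 6 libraries, relative to the mean of that gene or list over the libraries and printed in each cell, with colours limited to 1.5 in either direction; the neutrophil list in Sham replicate 3 lies past that limit, at 1.78. Sham replicate 2 carries the strongest colours for Bcl2, Bcl2l1, Pmaip1 and the mature B cell list, while Mcl1, Bcl2l11, Bax and Bak1 stay pale throughout.

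Of the 6 libraries, Sham replicate 2 was the one whose omission moved the log2 fold change furthest for 7 of the 10 members. The same count was not made over all genes tested. The most members, however, reached an unadjusted p under 0.05 without Sham replicate 1. The log2 fold changes then were -0.69 for Bcl2 (SE 0.24), 0.59 for Bcl2l1 (SE 0.22), -0.54 for Bbc3 (SE 0.20) and -1.10 for Pmaip1 (SE 0.24), and these 4 members had an unadjusted p under 0.05 by edgeR's quasi-likelihood test. The share of all genes at that threshold was 16.8% without that library, and the adjusted p of the 4 members was between 0.273 and 0.279. In Sham replicate 1 Bcl2 was below all OVX libraries and Bcl2l1, Bbc3 and Pmaip1 lay within the OVX range, and its pro-B and pre-B marker share of 0.278% was nearer to the 0.28% and 0.294% of OVX replicates 2 and 3 than to the other Sham libraries.

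The rest of the BCL2 family was also without a call. Of 16 further family genes 11 were tested, 5 with a higher and 6 with a lower fitted value. Their log2 fold changes ran from -0.43 to 0.15 around a median of -0.06. Bid (ENSMUSG00000004446), the BH3-only gene whose product is cut by caspase-8, was the 1 gene of these at an unadjusted p under 0.05. It was at 35.5, 39.0 and 44.6 CPM in Sham and at 33.0, 33.0 and 34.9 CPM in OVX, so that every OVX library was below every Sham library. Of all genes tested, 3.75% had an unadjusted p under 0.05 and 4.12% had all OVX below all Sham. The log2 fold change was -0.24 (SE 0.10, edgeR unadjusted p = 0.0484, adjusted p = 0.811), and the two-sided exact permutation test gave p = 0.1, the smallest possible. Next in this list stood Bnip3l, a mitophagy receptor, at 0.14 (SE 0.10), and Bad, a BH3-only gene, at 0.15 (SE 0.12), both with an edgeR adjusted p of 0.811. The other 5 genes were too low to test: Bcl2l10, Bcl2a1c and Hrk had 0 reads in all 6 libraries, Bik had 2 to 13 and Bcl2l15 had 0 to 10.

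Downstream of the mitochondrion, all 19 genes of the apoptosome, the caspases and their inhibitors were tested, 8 with a higher and 11 with a lower fitted value. Their log2 fold changes ran from -0.41 to 0.21 around a median of -0.04, none had an unadjusted p under 0.05, and in none were the groups separate. The lowest p-values were those of Casp6 at 0.17 (SE 0.12), Casp8 at -0.10 (SE 0.08) and Birc5, an inhibitor-of-apoptosis gene that is also a mitotic gene, at 0.21 (SE 0.16).

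Upstream regulators by p53, FOXO and NF-kB counted 15 tested of 17, of which 12 had a higher and 3 a lower fitted value in OVX. Of all genes tested, 7371 had a higher and 7934 a lower fitted value. Their log2 fold changes ran from -0.11 to 0.57 around a median of 0.08. Nfkbia (ENSMUSG00000021025), the inhibitor of NF-kB that NF-kB itself induces, was the 1 gene at an unadjusted p under 0.05. It was at 243, 204 and 219.8 CPM in Sham and at 237, 279 and 264 CPM in OVX, with overlapping groups, a log2 fold change of 0.23 (SE 0.09) and an edgeR adjusted p of 0.811. Foxo1 stood at 0.21 (SE 0.10) and Cdkn1a, a p53 target, at 0.35 (SE 0.20). Mdm2, the p53 ligase and target, was at 139, 117.5 and 135 CPM in Sham and 140.3, 141.5 and 143 CPM in OVX. Together with Foxo3, at 86.9 to 93.2 CPM in Sham and 93.6 to 95.5 CPM in OVX, it was 1 of 2 genes in this list with OVX above every Sham library. Of all genes tested, 4.33% had OVX above every Sham library and 3.75% had an unadjusted p under 0.05. Fitted values of the p53 targets named above thus differed in sign, being positive for Cdkn1a and Mdm2 and negative for Pmaip1 and Bbc3. None was past the adjusted threshold. Phlda3 and Ccng1, also on this list, were at 0.57 (SE 0.33) and -0.05 (SE 0.08).

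For MCL1, whose amount is set largely by how fast the protein is degraded, 5 genes listed under its turnover were examined. All 5 had a lower fitted value in OVX, from -0.21 to -0.02 on the log2 scale around a median of -0.08. Fbxw7, which encodes a ligase subunit that marks MCL1, was at 50.3, 51.0 and 50.6 CPM in Sham and 46.5, 49.5 and 49.6 CPM in OVX, all OVX below all Sham, with a log2 fold change of -0.06 (SE 0.07, edgeR adjusted p = 0.830). Of all 15305 genes tested, 7934 had a lower fitted value and 4.12% had all OVX below all Sham. Trib1 stood at -0.21 (SE 0.12), Ddx3x at -0.08 (SE 0.09), Huwe1 at -0.08 (SE 0.10) and Usp9x at -0.02 (SE 0.08). None of the 5 had an unadjusted p under 0.05. Whether and in which direction each acts on MCL1 was not weighed, so their shared sign is not read as a change in MCL1 turnover. RNA counts carry no measure of the protein.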

How the data were processed

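Per the labels, B cells were enriched from bone marrow with magnetic beads, RNA was extracted with Trizol and libraries were made by TruSeq. The authors deposited unnormalized read counts for each Ensembl gene, for 3 Sham and 3 OVX libraries. The submitters' processing notes name mm10, CASAVA and Bowtie 0.12.2 without their roles, and the counting tool, its annotation and its use of strand are not given in the sources used here. The HIF-1α ChIP and input samples were not analysed here. Symbols were matched to 54409 of 54532 identifiers. Reads shared by near-identical copies or by overlapping genes may have been assigned to either.

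The counts were fitted with edgeR 4.0.16 in R 4.3.3 (filterByExpr by group, TMM, quasi-likelihood test, Benjamini-Hochberg over 15305 genes, no block), and a call needed an adjusted p under 0.05 together with a 1.6-fold or larger change. For single genes an exact permutation test, two-sided, was run on log2 CPM (prior count 2). The script was tested on simulated data. Alternatives were DESeq2 1.42.0, limma-voom (limma 3.58.1), edgeR's exact test, other scalings and filters, other fold thresholds, a replicate block, marker shares as covariates and leaving out each library. The members and lists were chosen with earlier results of these data known. All 10 members are named, and of each other list the genes at an unadjusted p under 0.05 and at least the 3 of lowest p. Counts are of reads without molecular identifiers. No pair of libraries was a repeat of another: the lowest chi-square per degree of freedom was 9.46.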

Additional observations from a re-analysis of the deposited data

How the results depend on the processing

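No gene and no member was called under any alternative, and the lowest adjusted p of a member was 0.273, without Sham replicate 1. Of 180 values of members under alternatives, 166 kept their direction and their side of the threshold and 14 reversed. Members at an unadjusted p under 0.05 numbered 0 by edgeR's quasi-likelihood test, 1 (Pmaip1) by DESeq2, by edgeR's exact test and without a filter on low counts, and 1 (Bcl2l1) with the mature B cell marker share as a covariate, added after seeing the data. Leaving out 1 library gave 0 to 4, with 4 without Sham replicate 1 (16.8% of genes) and 1, Bmf, without OVX replicate 1 (6.18%). Genes at that threshold numbered 574, but 755 of 27412 by DESeq2, 1269 of 27416 without a filter, and from 233 without OVX replicate 2 to 2698 without Sham replicate 1. Members with separate groups numbered 0, or 1 with scaling on general B cell genes, and 0 to 3 with 1 library left out: 3 when Sham replicate 1 was left out (36.1% of genes), 2 for Sham replicate 2 (15.2%), 2 for OVX replicate 1 (23.9%) and 1 for OVX replicate 2 (13.7%).

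Reversed log2 fold changes were as follows. Bak1 gave -0.00573 by library size only, -0.0759 with scaling on general B cell genes and -0.0426 with the mature B cell covariate, and -0.0725 to 0.0573 with 1 library left out. Mcl1 gave -0.0363 with that scaling, -0.00153 with neutrophil markers as a covariate, and -0.0178 to 0.156 with 1 library left out. Bcl2a1b gave -0.0568 and Bcl2l11 -0.002 with that scaling. With 1 library left out, Bcl2a1b ran from -0.175 to 0.38 and Bcl2 from -0.687 to 0.0497, its only positive value, without Sham replicate 2. Scaling on B cell genes moved the median of all genes to -0.0997 and the genes at an unadjusted p under 0.05 from 225 higher and 349 lower to 61 and 487, DESeq2 to 204 and 551, and edgeR's exact test to 152 and 441. The cause of these changes was not tested.

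Groups share replicate numbers. Deviations of same-numbered libraries from their group means correlated at -0.41, -0.189 and -0.279, none of them positive. With 3 libraries a group the deviations depend on one another, so these values cannot decide whether the numbers pair the libraries. With the replicate number as a block, 206 genes and 0 members had an unadjusted p under 0.05, none was called, and the median log2 fold change was 0.0471 for pro-survival and -0.0329 for pro-death members. The 3 libraries a group limit what could be found, and for Bcl2a1b counting error adds to the spread.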
